A study of Mus musculus with 2 samples.

Results

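The 6 microRNA genes that lie antisense to the imprinted gene Rtl1 were examined in the mouse cortex shortly after birth: Mir431, Mir433, Mir127, Mir434, Mir432 and Mir136. They were chosen by their gene symbols in GENCODE annotation M21 and by their place on chromosome 12, and all 6 were found among the 2202 microRNA genes counted. RNA of fewer than 30 bases was sequenced from the left cerebral cortex of 4-day-old female B6CASTF1/J mice, an F1 hybrid of C57BL/6 and castaneus parents. The 2 biological replicates have a library each, are numbered separately in the labels and share 1 donor record. They were taken as 2 animals, which the labels do not state, and form the only group, so no test between conditions was possible. No treatment or engineered allele is named in the labels, and the counts do not separate the parental alleles.

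Rtl1 is a protein-coding gene derived from a retrotransposon and is expressed from the chromosome inherited from the father. The opposite strand is transcribed from the maternal chromosome, and the microRNAs cut from that transcript match Rtl1 along their whole length, a pairing through which an Argonaute protein can cleave a messenger RNA. Most animal microRNAs instead pair with their targets mainly through the seed, the short stretch near the 5′ end, so these microRNAs can also act on other transcripts. The surrounding Dlk1-Dio3 locus is one of the large imprinted microRNA clusters of mammals and is strongly expressed in brain and placenta.

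The mature sequences are given 5′ to 3′ from RefSeq (GRCm38.p6, the assembly called mm10) with the seed, bases 2 to 8, in capitals. All 11 mature products listed for the 6 genes are shown, because the counts add up both arms of a hairpin.
miR-431-5p: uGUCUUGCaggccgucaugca
miR-431-3p: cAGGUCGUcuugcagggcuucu
miR-433-5p: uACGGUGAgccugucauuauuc
miR-433-3p: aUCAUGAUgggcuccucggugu
miR-127-5p: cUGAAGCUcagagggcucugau
miR-127-3p: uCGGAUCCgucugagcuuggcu
miR-434-5p: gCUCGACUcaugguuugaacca
miR-434-3p: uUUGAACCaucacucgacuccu
miR-432: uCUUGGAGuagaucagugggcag
miR-136-5p: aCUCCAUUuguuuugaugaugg
miR-136-3p: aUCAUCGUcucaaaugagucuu

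No seed was repeated among these 11, and none was found in any other of the 1738 mature mouse sequences of the RefSeq table, so the genes are neighbours without being a seed family. Between the arms of Mir431 a run of 10 bases, gucuugcagg, is repeated, starting at base 2 of the 5p arm and at base 7 of the 3p arm. The arms of Mir434 share 9 bases, uuugaacca, starting at base 14 of the 5p arm and base 1 of the 3p arm. Of the 677 hairpins in the table with both arms listed, 4 (0.591%) shared 10 or more bases between arms and 9 (1.33%) shared 9 or more, and the median was 4. This comparison was chosen after the sequences had been seen.

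All 6 hairpins lie on the plus strand of chromosome 12 (mm10) within 4942 bases, and each lies wholly opposite the coding sequence of Rtl1, whose only annotated transcript has 1744 codons on the minus strand. Mir431 (ENSMUSG00000070080.1) lies from 109590447 to 109590537 and Mir433 (ENSMUSG00000070072.1) from 109591715 to 109591838. Mir127 (ENSMUSG00000070076.2) lies from 109592846 to 109592915 and Mir434 (ENSMUSG00000070133.1) from 109594506 to 109594599. Mir432 (ENSMUSG00000087855.1) lies from 109594956 to 109595030 and Mir136 (ENSMUSG00000104858.1) from 109595327 to 109595388. Along Rtl1 the order is reversed: Mir136 faces coding bases 16 to 77, just after the start codon, Mir127 faces bases 2489 to 2558 near the middle, and Mir431 faces bases 4867 to 4957 near the end. No other plus-strand gene of annotation M21 spans the hairpins, which stand 18.7 kb after the end of Meg3 and 8.55 kb before the start of Rian, both maternally expressed noncoding transcripts.

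Each of the 11 mature sequences had exactly 1 perfectly complementary site in the Rtl1 transcript. Among all transcripts of annotation M21 no other gene held such a site, apart from Mir3071, which is transcribed across Mir136 from the Rtl1 strand. The Rtl1 sites for both arms of Mir127, the most abundant gene of the set, and for Mir136, the one nearest the start codon, are shown 5′ to 3′ on the Rtl1 strand, with the bases that pair with the seed in capitals.
Site for miR-136-3p, coding bases 17 to 38: aagactcatttgagACGATGAt
Site for miR-136-5p, coding bases 52 to 73: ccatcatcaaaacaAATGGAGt
Site for miR-127-3p, coding bases 2495 to 2516: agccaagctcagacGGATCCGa
Site for miR-127-5p, coding bases 2529 to 2550: atcagagccctctgAGCTTCAg

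**Figure D1:**
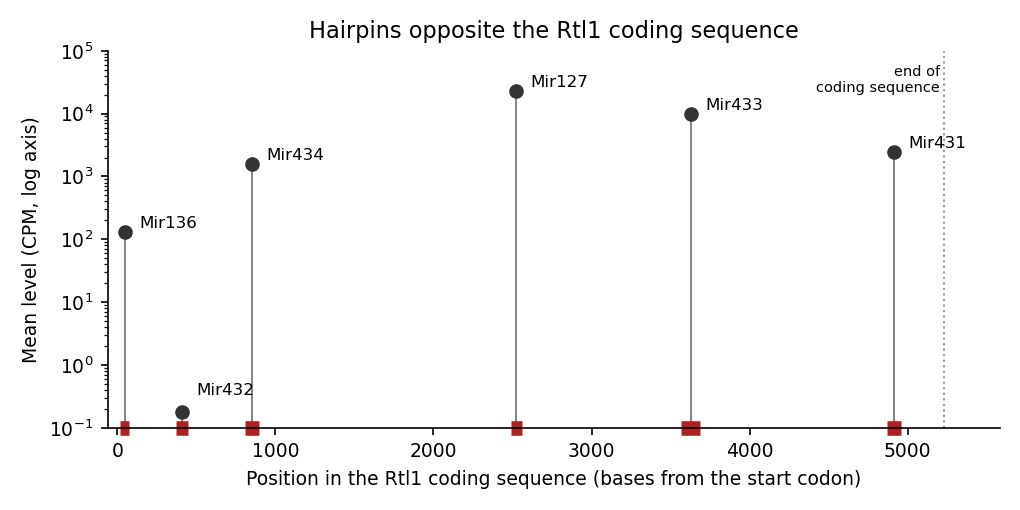
Position of the 6 hairpins (red bars) opposite the Rtl1 coding sequence, in bases from its start codon, with the mean level of each gene over both animals in CPM on a log axis (points, n = 2). The highest point is Mir127 near the middle of the coding sequence, and Mir432, near its start, stands lowest at 0.181 CPM.

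The libraries held 3555469 (replicate 1) and 2761003 (replicate 2) reads on the sense strand of annotated microRNA genes, and levels are given as CPM, counts scaled by these totals. Where no read was found, the limit is 3 counts, or 0.844 and 1.09 CPM. Reads mapped to several places, 45.8% and 41.0% of all reads, were assigned to no gene. None of the 6 hairpins shares 22 bases with another annotated microRNA gene. Of 15 microRNAs listed as brain markers, 11 were detected and all had reads. The marker lists were chosen with earlier results of these data known. Brain markers held 4.30% of microRNA counts in replicate 1 and 3.22% in replicate 2, led by Mir128-1 and Mir137. They did not all differ in the same direction: Mir128-1 had 50037 and 18550 counts, and Mir138-1 had 7661 and 10579. The 3 copies of the neuronal Mir124a had 10 counts or fewer in either library, and Mir9-2 had 9 and 2. A read that fits more than 1 gene copy was assigned to no gene, so low counts of such copies do not show that their product was absent. Marker sums of some other cells also differed between the animals. Epithelial microRNAs held 0.248% and 0.0361%, red cell microRNAs 0.00602% and 0.0550% (Mir451b at 0), and vascular ones 1.63% and 2.38%. In the red cell list Mir451a had 60 and 1356 counts and Mir144 23 and 79, while Mir486 had 131 and 84. In the vascular list Mir126a had 45660 and 54454 counts, while Mir145a had 497 and 270. Microglial and leukocyte microRNAs held 0.110% and 0.119%.

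Of the 6 genes, 5 reached the detection minimum of 2 CPM in each library, against 20.4% of all 2202 microRNA genes. They differed widely in level, from Mir127, among the leading genes by counted reads, to Mir432, which had a single read. Shares and ranks leave out reads mapped to several places, so genes whose reads map in that way are ranked too low. Together they held 3.43% (95% Wilson interval 3.41 to 3.44) of microRNA counts in replicate 1 and 3.91% (3.89 to 3.94) in replicate 2, or 3.67% ± 0.345 (SD, n = 2). In bulk tissue, fewer cells of a type and less RNA per cell cannot be told apart. Intervals of single libraries account at most for counting error and leave out the spread between animals. They take each read as independent, so they are too narrow where PCR copies of 1 molecule are read more than once.

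Mir127, whose product represses Rtl1 in the mouse placenta, had 72532 counts in replicate 1 and 69121 in replicate 2, or 20400.1 and 25035 CPM. It ranked 12th and 6th among all genes. Mir127 alone made up 59.6% of the counts of the 6 genes in replicate 1 and 64.0% in replicate 2.

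Mir433, whose human counterpart represses the growth factor gene FGF20, had 33148 and 28804 counts, or 9323 and 10432 CPM. It ranked 24th and 20th and made up 27.2% and 26.7% of the counts of the set. Mir127 was thus 2.19 times as abundant as Mir433 in replicate 1 and 2.40 times in replicate 2, and these neighbours together held 3.26% ± 0.406 of all microRNA counts.

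Mir431, whose product represses the Wnt inhibitor gene Kremen1 in mouse sensory neurons, had 9617 and 5841 counts, or 2705 and 2116 CPM. Mir434 had 6031 and 3884 counts, or 1696 and 1407 CPM. Both stood among the 100 leading genes in each library, Mir431 at ranks 67 and 74 and Mir434 at ranks 91 and 92. Mir127 exceeded Mir431 by 7.54 and 11.8 times and Mir434 by 12.0 and 17.8 times.

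Mir136, the hairpin nearest the start codon of Rtl1, had 447 and 372 counts, or 126 and 135 CPM, at ranks 215 and 203. The level of Mir127 was 162 and 186 times as high. Mir432 had no count in replicate 1 and 1 in replicate 2. Both values lie under the limit that a count of 0 allows, so that expression of Mir432 was not detectable at this depth, although it stands 356 bases after Mir434 and 296 before Mir136.

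**Figure D2:**
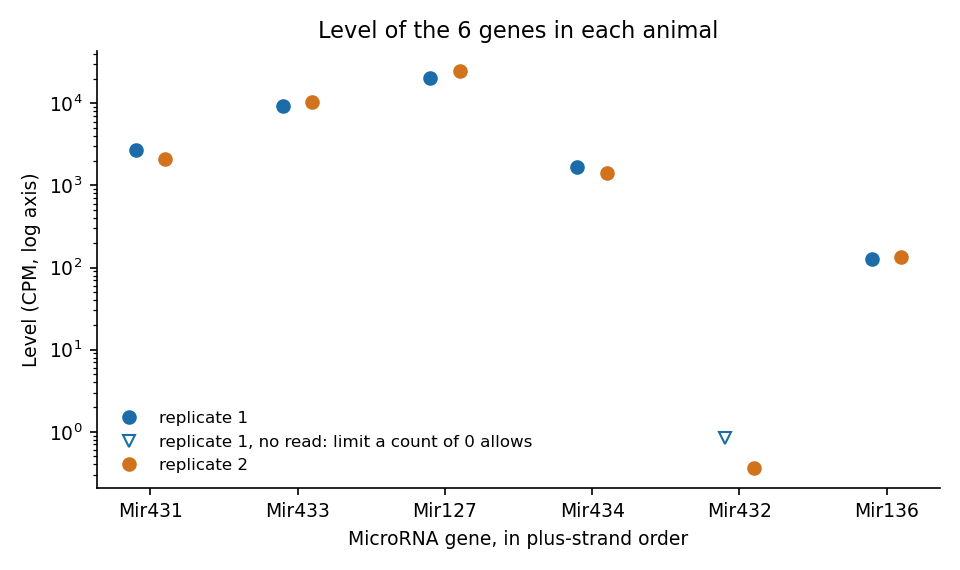
Level of each gene in both animals in CPM on a log axis, in plus-strand order, with the open triangle at the limit that a count of 0 allows. Mir127 stands highest with Mir433 next, Mir432 stands lowest, and the values of both animals lie close together beside the differences between genes.

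In both libraries the order from high to low was Mir127, Mir433, Mir431, Mir434, Mir136 and Mir432. The mean levels were 22717 ± 3277 CPM for Mir127, 9878 ± 784 for Mir433, 2410.2 ± 417 for Mir431, 1551.5 ± 205 for Mir434 and 130.2 ± 6.37 for Mir136 (SD, n = 2). For every pair of neighbours in that order, both values of the higher gene lay above both values of the lower. The closest pair was Mir431 and Mir434, whose lowest and highest values were 2116 and 1696 CPM. Reads per gene can also differ through ligation and amplification of a particular sequence, which was not tested.

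Mir136 was read only when strand was kept. Its hairpin of 62 bases lies wholly within that of Mir3071 (ENSMUSG00000070129.2) on the minus strand, from 109595318 to 109595397. miR-136-5p overlaps miR-3071-3p by 20 bases and miR-136-3p overlaps miR-3071-5p by 19, on opposite strands. On its own strand Mir3071 had no count in either library, and on the strand opposite to it stood 447 and 372 counts, the same numbers as for Mir136. In the column that ignores strand both genes had 0 counts, and 213069 and 175822 reads were set apart there as ambiguous between genes. The other 5 members had the same counts with and without strand, and no read lay on the strand opposite to any of the 6 genes, which is the strand of Rtl1.

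Within the imprinted locus, taken from Mir770 to Mir410 with 64 annotated microRNA genes, the 6 genes held 24.6% (24.5 to 24.7) of counts in replicate 1 and 29.1% (29.0 to 29.3) in replicate 2. The 9 genes before them, at the Meg3 end, held 14.5% and 18.3%, and the 48 genes beyond Mir136 held 60.9% and 52.6%. Mir127 was the most abundant gene of the locus by mean level, followed by Mir382 at 17768 ± 1175 CPM, Mir770 at 17592 ± 3098, Mir487b at 16742 ± 12008 and Mir411 at 6238 ± 478. In replicate 1 Mir487b stood above Mir127, with 89716 counts against 72532, and in replicate 2 it had 22782. Without Mir487b, an alternative chosen after the data had been seen, the 6 genes held 30.0% and 31.0% of locus counts, so that most of the difference between the animals in that share came with Mir487b.

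The nearest neighbours on either side of the set had unlike levels, and that of Mir341 lay between the levels of Mir434 and Mir431 in both libraries. Mir3070b, the nearest gene before Mir431, stood at 9.39 ± 3.03 CPM, a value that is uncertain because its hairpin shares 22 bases with that of Mir3070a, and Mir341, the nearest on the other side, at 1786 ± 8.16 CPM. The median of mean levels was 1981 CPM over all 6 genes, against 485 CPM over the 9 genes of the Meg3 end and 253 CPM over the 48 distal genes, where 9 of the 48 had no read in either library. The share of detected genes was 5 of 6, 8 of 9 and 38 of 48. Some entries of the other stretches lie on the minus strand opposite a gene with reads and had no more than 1 count. Mir3071, which lies in this way opposite Mir136, was not counted among the 6, so the sets are not alike. Over detected genes alone the medians were 2410 CPM for the members, 565 for the Meg3 end and 534 for the distal genes. With 6 genes that share 1 transcribed strand, these counts are a description.

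**Figure D3:**
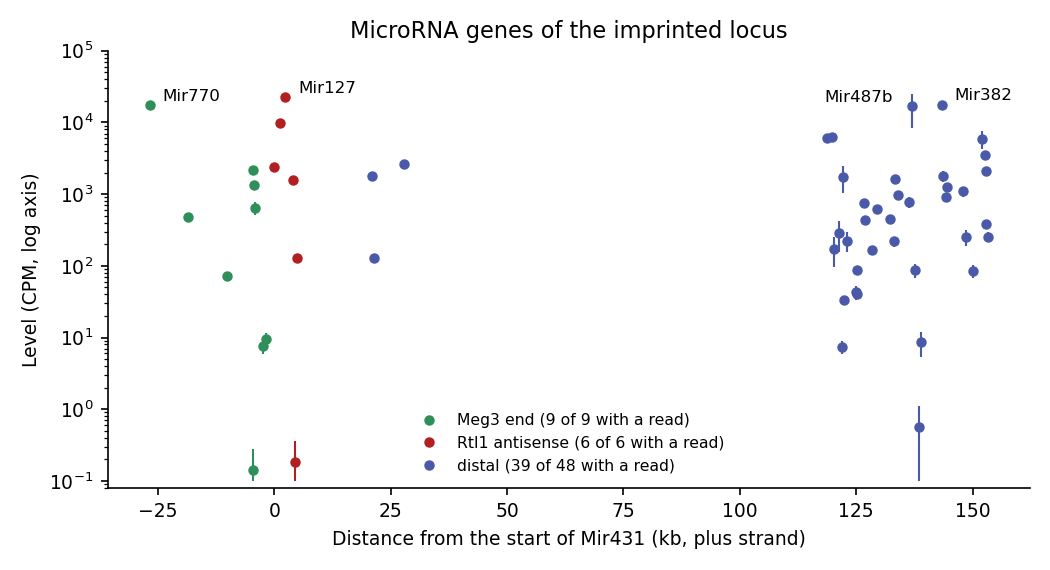
Level of each microRNA gene with a read in the imprinted locus, in CPM on a log axis, against its distance from the start of Mir431 in kb, with points at the mean of both animals and lines from the lower to the higher value. The 6 genes antisense to Rtl1 (red) stand within 4942 bases and reach the top of the locus with Mir127, and the line at Mir487b spans its difference between the animals.

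Between the animals the levels of the 5 detected members differed by 1.29-fold or less. None of the 5 was 2-fold apart, beside 15.9% of the 308 microRNA genes that reached 100 counts over both libraries, and with 5 members a count of 0 is near that share. The median absolute log2 ratio was 0.28 over the 5 members and 0.33 over the 308 genes, which include the members. The sets were not matched for level, so these medians do not compare the members with genes of like level. Mir127 was 1.21-fold higher in replicate 2 (log2 ratio of replicate 2 over replicate 1 0.28, 95% counting interval 0.26 to 0.29) and Mir433 1.11-fold higher there (0.14, 0.12 to 0.17). Mir431 was 1.29-fold higher in replicate 1 (-0.37, -0.42 to -0.32), as was Mir434 by 1.22-fold (-0.29, -0.35 to -0.23). Mir136 had a log2 ratio of 0.08 with an interval from -0.12 to 0.28 that spanned 0. These ratios use TMM factors, which scale each library by a trimmed mean of gene ratios.

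Of the 5 members 3 had log2 ratios above 0, Mir136 with its interval across 0 among them, and 2 below, beside 137 above and 171 below of the 308 genes. Counting intervals of Mir127 and Mir433 lay wholly above 0 and those of Mir431 and Mir434 wholly below, which compares these libraries and not the animals. The median log2 ratio of the 5 members was 0.08, against -0.09 over the 308 genes, -0.06 over 8 genes of the Meg3 end and -0.29 over 38 distal genes with at least 10 counts over both libraries. The brain, epithelial, red cell and vascular marker sums given above also differed between the animals, with brain, red cell and vascular members going both ways. The part of these marker sums in the ratios was not tested.

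**Figure D4:**
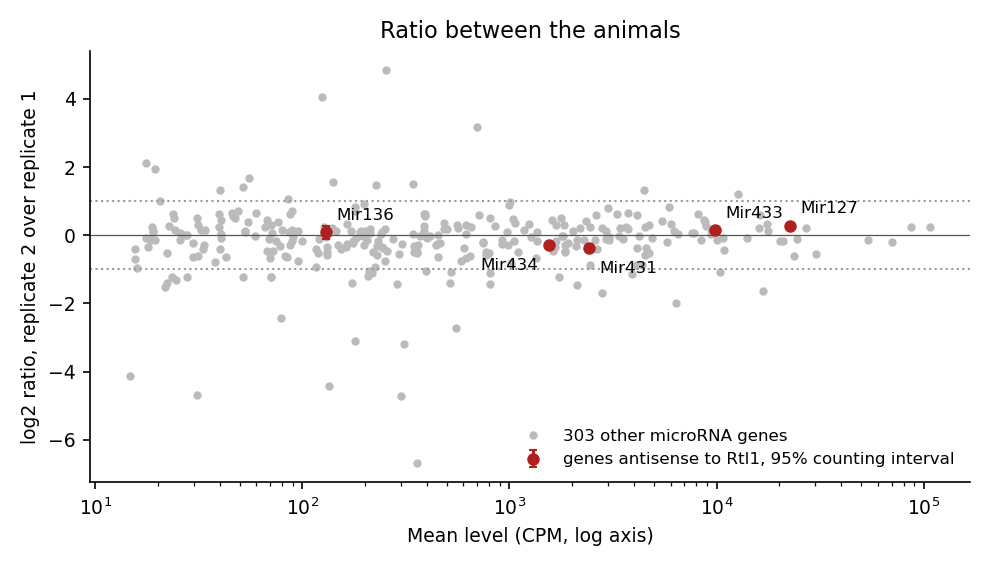
Log2 ratio of replicate 2 over replicate 1 against the mean level in CPM (log axis) for microRNA genes with 100 or more counts over both libraries, with dotted lines at 2-fold. The 5 detected genes antisense to Rtl1 (red, with 95% counting intervals) lie between -0.37 and 0.28, inside the dotted lines.

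Elsewhere in the profile, the genes with levels most like those of each member were found by Euclidean distance of log2(CPM + 1) over the 2 libraries. Mir130a lay nearest to Mir433, at a distance of 0.04, with 9427 and 10736 CPM, followed by Mir151 at 0.11. Mir744 and Mir149 were the nearest to Mir127, at 0.32 and 0.35, and the former had 25328 and 23645 CPM. For Mir431 these were Mir187 (0.18) and, in the same locus, Mir370 (0.20). For Mir434 they were Mir376a of the locus (0.13) and Mir15b (0.14), and for Mir136 Mir542 (0.10) and Mir1188 of the locus (0.13). For Mir432, 42 genes had the same values of 0 and 1 count. Likeness over 2 libraries reflects the level more than any pattern.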

How the data were processed

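Small RNA libraries of 2 replicates of 1 group were analysed. The authors deposited raw counts of reads for each microRNA gene, in a separate table for either library, neither pooled nor normalized. Build mm10 and annotation M21 are given per the file headers of the deposited notes. The aligner and counter, like trimming, are not given in the sources used here. The tables have no column names. The value columns were read as either strand, annotated strand and opposite strand from their layout and values, and the annotated strand was used. Rows that name no gene (unmapped, several places, outside genes) stayed out of library sizes. They made up 69.6% of reads in replicate 1 and 72.2% in replicate 2.

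CPM, shares with Wilson intervals and log2 ratios (TMM factors of edgeR 4.0.16, 0.5 added to each count, exact Clopper-Pearson counting intervals) were computed here with Python 3.11.15 and SciPy 1.17.1. The ratio step was tested on simulated counts with counting error alone and known library sizes, so the TMM factors were not part of that test. edgeR's quasi-likelihood test was not run, since there is 1 group. Symbols and coordinates came from annotation M21, and mature sequences and hairpins from RefSeq, which matched all 6 genes with the same hairpin coordinates. Complementary sites were searched as exact matches in M21 transcripts. Hairpins were folded with RNAfold 2.7.2. The effect of castaneus variants on mapping was not tested.

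Named genes were the 6 members, the nearest microRNA gene on each side, any gene overlapping a member, the 2 genes nearest in level to each member and the 4 most abundant other genes of the locus. Genes of the marker lists were named beyond this rule, after their values had been seen. The members and lists were chosen with earlier results of these data known. Alternatives were counts on either strand, other denominators, other scaling factors, other minimums and leaving out each replicate.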

Additional observations from a re-analysis of the deposited data

How the results depend on the processing

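With all reads of a library as denominator, unmapped and multiply mapped reads included, the share of the 6 genes was 1.06% in place of 3.67%, by construction. Without Mir487b, chosen after the data had been seen, their share of the locus was 30.5% in place of 26.9%. Leaving out each replicate only restated the value of the other library, 3.43% to 3.91% of microRNA counts and 24.6% to 29.1% of locus counts. The order of the 6 genes was the same in both libraries. With counts on either strand Mir136 was at 0, which left 4 genes detected in place of 5, put 4 of 6 genes in the same place of the order, and turned the median log2 ratio from 0.08 to -0.07, since 1 gene fewer entered it. With relative log expression factors, library size alone or 2 added to each count the median was 0.08 to 0.10. The log2 ratio of Mir127 was 0.30 with library size alone, outside its counting interval. No member was 1.5-fold apart. With a minimum summed count of 20, 20.0% of all genes were 2-fold apart. Each animal has 1 library, so that the effects of animal and preparation cannot be told apart. Depth limits Mir432 most.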

Other observations

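Folding of the RefSeq hairpins gave predicted free energies per 100 bases of -50.1 kcal/mol for Mir127, -47.7 for Mir431, -45.5 for Mir136, -39.8 for Mir434, -36.1 for Mir433 and -31.6 for Mir432, against a median of -40.6 over 1005 mouse hairpins. Without scaling by length the order differed, with -44.8 kcal/mol for Mir433, -43.4 for Mir431, -37.4 for Mir434, -35.1 for Mir127, -28.2 for Mir136 and -23.7 for Mir432. Mir432, with a single read, had the highest predicted energy of the 6 on both scales, and Mir127 had the lowest only per 100 bases. Mir433, next to Mir127 in level, stood above the median of -40.6 per 100 bases. A link between energy and level was not tested. The annotated ends differ between hairpins, from 62 bases for Mir136 to 124 for Mir433, which affects such values. The mature sequences of Mir136 had 36.4% G and C in both arms, below those of the other members, which had 45.5% to 59.1%.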
